A study of Arabidopsis thaliana with 6 samples.

Results

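The TRICHOME BIREFRINGENCE-LIKE (TBL) genes of Arabidopsis thaliana were followed in pollinated flowers of the pop2-1 mutant and the wild type. A probe set, the group of short probes that reports 1 transcript on the Affymetrix ATH1 array, was taken as a member where its annotation gave 1 gene and that gene's symbol was TBL followed by a number. This gave 22 members, each of a different gene, among 22746 probe sets other than array controls. The reference gene table names 45 TBL genes by symbol or synonym, and the other 23 were not analysed here. The series compared wild-type and homozygous pop2-1 flowers and was described as a study of high endogenous γ-aminobutyric acid (GABA). GABA itself was not analysed here. The POP2 gene codes for a GABA transaminase, which degrades this amino acid. Both groups were of the Ler accession, were untreated apart from pollination and were collected at stage 14 to 15, with 3 arrays of the mutant and 3 of the wild type, described as biological replicates. A single mutant allele was studied, and how many flowers or plants went into each array is not stated in the labels. The POP2 transcript was not analysed here, so the mutant genotype was not checked against its own signal.

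TBL proteins are plant-specific enzymes of the secretory pathway that are known for adding acetyl groups to wall polysaccharides, or are related to proteins that do. Different members act on different polymers: TBL23, TBL25 and TBL26 on glucomannan, TBL28, TBL30, TBL32, TBL34 and TBL35 on xylan, while TBL38 has been described as acting on the acetyl groups of pectin in the seed coat. Acetylation changes how wall polymers bind to each other and how readily enzymes reach them. For the remaining members no substrate is named here.

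The values were MAS5 signals, a linear hybridisation intensity for each probe set that the authors scaled to the same average on each array. Because probes differ in how strongly they bind, signals were compared between groups within a probe set and not between genes. Members with a mean signal at or under 126 over the 6 arrays, the 40th percentile of all probe sets, were not tested. This left 12 members for the test and 10 too dim for it. The nearest to this limit were TBL41, with an arithmetic mean signal of 177 and a test, and TBL28, with one of 104 and none. The arrays had median signals of 209.3 to 228.9. On pop2-1 replicate 2 a measure of RNA quality was far from the rest, its ratio of actin 3' to actin 5' signal being 9.73 where the other 5 arrays had 1.72 to 2.93. The annotation used gave no gene for 8794 of 22810 probe sets, so a gene without a named probe set here may still be on the array. Of the organ identity markers of the flower only INO, a gene of the ovule integument, had a named probe set, with signals from 192.9 to 355.1, and the other 9 were not analysed here.

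Among the glucomannan acetyltransferase genes, TBL26 (AT4G01080) was higher in pop2-1. Its signals were 1998, 2172 and 2222 on the pop2-1 arrays of replicates 1, 2 and 3, and 1174, 1269 and 1153 on the wild-type arrays. The groups were far apart, the lowest mutant signal standing well above the highest wild-type signal, and the arrays within each group lay close together. The mean was 2131 ± 118 over the mutant arrays and 1198 ± 61.6 over the wild-type arrays (SD, n = 3 each). On the log2(signal + 16) scale TBL26 rose by 0.82 ± 0.10 (limma's standard error, 95% interval 0.59 to 1.05, limma adjusted p = 0.0127), a 1.77-fold difference. The adjusted p comes from limma's moderated test, adjusted by the Benjamini-Hochberg method across the 13647 tested probe sets, and a gene is said to have risen or fallen where it is under 0.05. Of those probe sets 0.147% rose and 0.315% fell. A larger log2 rise was measured for 70 of the 13647 probe sets, most of which did not pass. Whether more cells that carry the transcript or more transcript per cell gave a difference cannot be told apart in whole flowers.

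The rise of TBL26 kept its size when any 1 array was left out, between 0.79 and 0.87 on the log2 scale, but its call did not hold in each case. Leaving out pop2-1 replicate 3 gave a limma adjusted p of 0.115, and leaving out wild-type replicate 1, 2 or 3 gave 0.0907, 0.0793 or 0.126, within a range of 0.000325 to 0.126 over the alternatives tried. In these 4 fits 5, 14, 5 and 8 of the 13647 probe sets passed, so few calls of any gene held there. TBL26 passed without pop2-1 replicate 1 and without pop2-1 replicate 2, the array with the high actin ratio (log2 0.81, limma adjusted p = 0.0115). Those fits called 496 and 75 probe sets, where the reported fit called 63. With the replicate number as a block TBL26 was again the 1 member that passed (limma adjusted p = 0.00844), in a fit that called 1.88% of all probe sets. Between arrays that share a replicate number the log2 difference of TBL26 was 0.76, 0.77 and 0.94.

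The 3 pollen markers bright enough to test had log2 differences above 0, as did 55.4% of all probe sets tested. Of the 5 pollen markers 4 had a named probe set, none at 0, and the summed signal of these 4 was 694.4 to 1349.7 on the mutant arrays and 656.8 to 793.3 on the wild-type arrays. ANX2, a receptor kinase of the pollen tube, had a log2 difference of 0.49 ± 0.24. MGH3, a histone of male gametes, had 0.53 ± 0.23, and ACT12, a pollen actin, 0.43 ± 0.24. In limma 0 of these 3 passed, with 1 at an unadjusted p under 0.05, beside 11.9% of all probe sets tested. Among the mutant arrays ANX2, MGH3, ACT12 and TBL26 were each lowest on replicate 1. So were TBL18, TBL25, TBL37, TBL38, TBL39 and TBL45, but not TBL16, TBL23, TBL35, TBL36 or TBL41, so this order is not particular to TBL26. ANX2 and MGH3 were highest of the mutant arrays on replicate 2, and ACT12 and TBL26 on replicate 3. Over these arrays ANX2 ran from 341.3 to 740.5 and TBL26 only from 1998 to 2222. The part of pollen in the TBL26 difference was not tested.

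**Figure D1:**
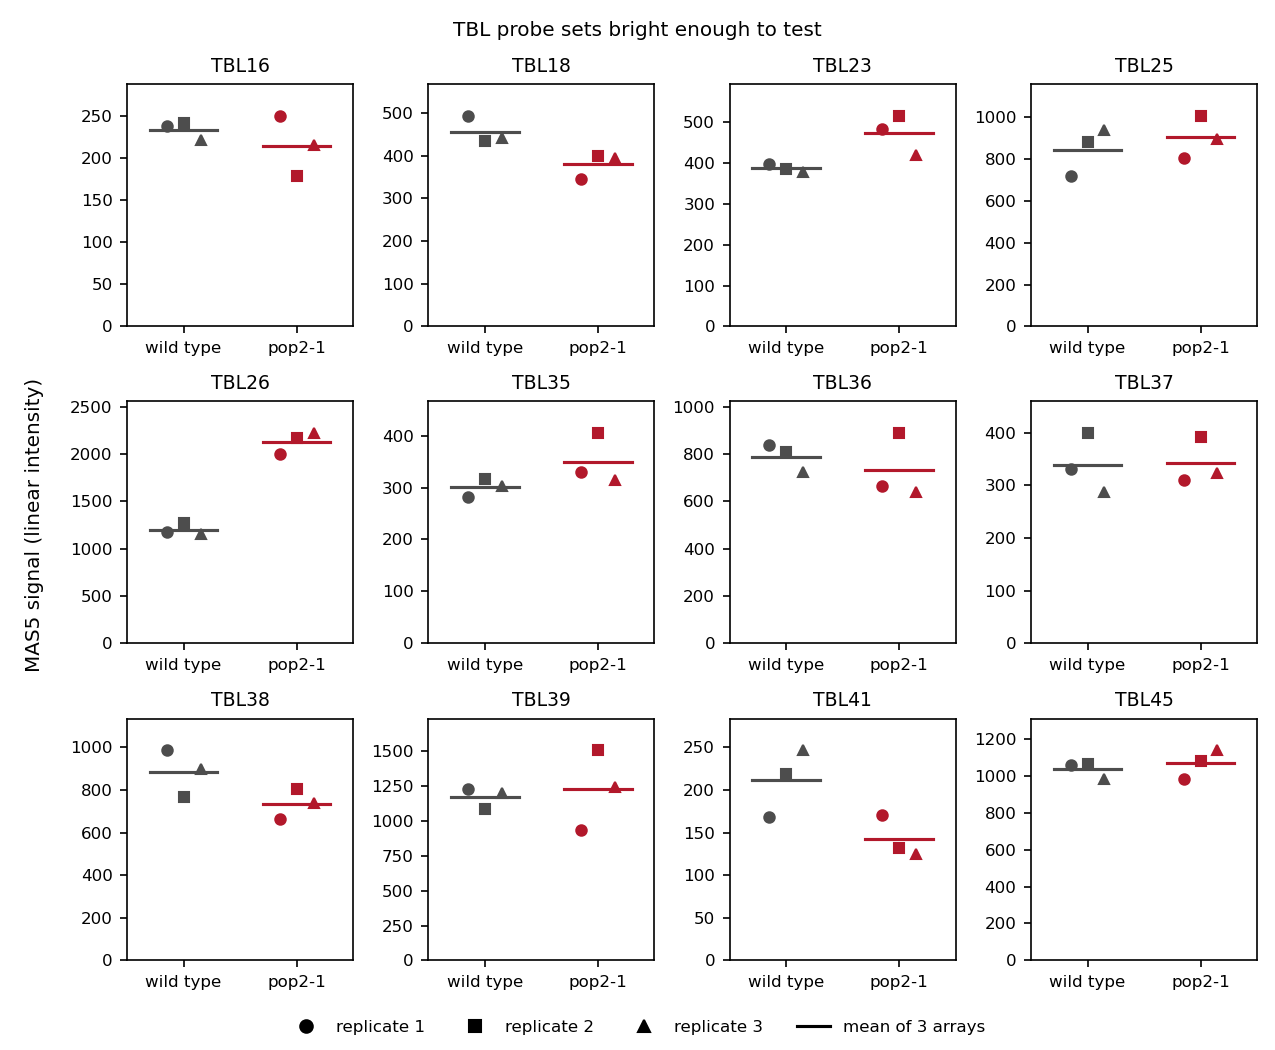
MAS5 signal (linear intensity, each axis from 0) of the 12 TBL probe sets bright enough to test, on the 3 wild-type arrays (grey) and the 3 pop2-1 arrays (red); symbols give the replicate number and bars the mean of 3 arrays. TBL26 shows the widest gap, with mutant signals of 1998 to 2222 over wild-type signals of 1153 to 1269, while the groups overlap in 9 of the 12 panels.

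TBL23 (AT4G11090) had pop2-1 signals of 484.7, 515.7 and 420.3 and wild-type signals of 397.2, 386.9 and 377.4. The mutant signals lay above those of the wild type without overlap, but replicate 3 of the mutant came close to the highest wild-type array. TBL23 had a log2 difference of 0.28 ± 0.13 (95% interval -0.01 to 0.56) and did not pass (limma adjusted p = 0.431). TBL25 (AT1G01430) had pop2-1 signals of 806.3, 1004.3 and 896.5 and wild-type signals of 717.0, 878.2 and 936.2. Its groups overlapped, and the highest wild-type array lay above 2 of the mutant arrays. The log2 difference of TBL25 was 0.10 ± 0.14 (95% interval -0.22 to 0.41, limma adjusted p = 0.80), an interval that lies below the whole interval of TBL26. The remaining glucomannan member, TBL24, was not analysed here.

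TBL26 was set against these relatives by the difference between genes within each array, a quantity whose change between groups carries information and whose level does not. On these same arrays TBL26 was the member that passed, while TBL25 and TBL23 did not pass. A separation of the groups was thus likely beforehand and adds no independent support for the rise of TBL26. The log2 difference TBL26 minus TBL25 was 1.29, 1.10 and 1.29 on the pop2-1 arrays and 0.70, 0.52 and 0.30 on the wild-type arrays. All 3 mutant values exceeded all 3 wild-type values, by 0.72 on average (1.23 ± 0.11 against 0.51 ± 0.20, SD, n = 3 per group; exact permutation test, 2-sided, p = 0.10). With 3 arrays against 3, 0.10 is the smallest p this test can give, so it could not reach 0.05. TBL26 minus TBL23, added after the values were seen, differed by 0.55 between the groups, with mutant values of 2.01, 2.04 and 2.36 and wild-type values of 1.53, 1.67 and 1.57 (exact permutation test, 2-sided, p = 0.10, again the smallest possible).

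**Figure D2:**
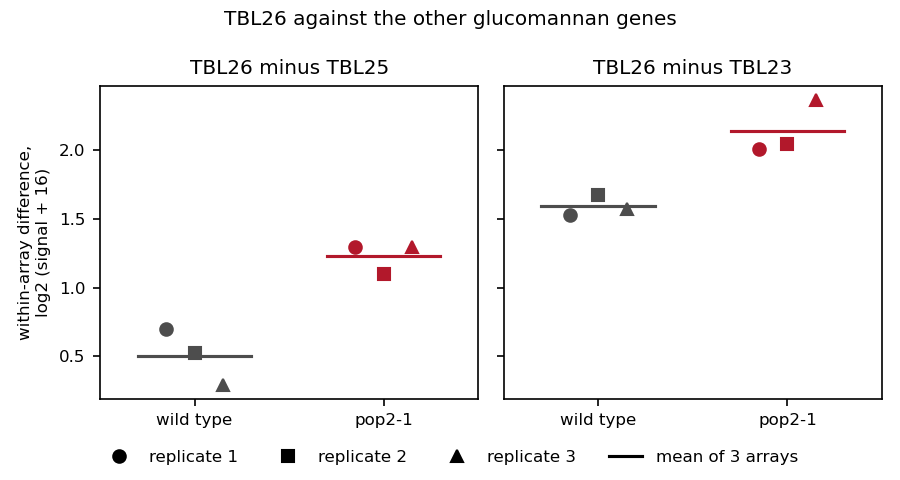
Difference between TBL26 and another glucomannan gene within each array, in log2(signal + 16), for TBL25 (left) and TBL23 (right); symbols give the replicate number and bars the mean of 3 arrays. In both panels the pop2-1 values lie above the wild-type values, from 1.10 to 1.29 against 0.30 to 0.70 for TBL25.

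The xylan acetyltransferase genes were mostly dim in these flowers. TBL35 (AT5G01620) was the 1 member of this group bright enough to test. Its pop2-1 signals were 330.0, 404.8 and 314.9 and its wild-type signals 282.2, 317.2 and 303.7. The groups overlapped by a narrow margin, and the mutant array of replicate 2 stood above the rest. TBL35 had a log2 difference of 0.20 ± 0.14 (95% interval -0.12 to 0.52, limma adjusted p = 0.598). TBL28 had signals from 90.1 to 115.2, TBL34 from 40.2 to 71.0 and TBL30 from 5.5 to 51.0 over the 6 arrays. TBL32 had signals from 39.5 to 92.4, and its probe set is of a kind that Affymetrix marks as shared by several transcripts, so they may not be of TBL32 alone. In these 4 genes the groups overlapped. None of 8 markers of secondary wall xylem, the tissue in which xylan is a main wall polymer, had a named probe set in this annotation and they were not analysed here.

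TBL38 (AT1G29050), the gene tied to pectin in the seed coat, had pop2-1 signals of 663.9, 804.8 and 738.8 and wild-type signals of 987.4, 766.7 and 900.2. The mutant signals were lower on average, with 1 mutant array above the lowest wild-type array. The log2 difference of TBL38 was -0.26 ± 0.13 (95% interval -0.56 to 0.04) and did not pass (limma adjusted p = 0.485). Of 4 seed coat markers only BAN, the anthocyanidin reductase gene of the seed coat, had a named probe set, and it fell, with mutant signals of 43.5 to 71.2 and wild-type signals of 229.3 to 494.3 (log2 -2.45 ± 0.29, limma adjusted p = 0.0102). The call of BAN was lost when the third mutant array, the second wild-type array or the third wild-type array was left out (limma adjusted p = 0.0792, 0.0643 and 0.094, within 0.000698 to 0.094 over the alternatives). INO, the ovule integument gene, went the other way from BAN without passing (log2 0.31 ± 0.20, limma adjusted p = 0.567), and its groups overlapped. The part of seed coat tissue in the TBL38 difference was not tested.

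Among the 7 tested members with no substrate named here, TBL41 (AT3G14850) differed most. Its pop2-1 signals were 170.8, 132.2 and 125.5 and its wild-type signals 167.9, 218.9 and 247.0. Mutant replicates 2 and 3 were lower than the 3 wild-type arrays, while mutant replicate 1 stood level with wild-type replicate 1, so the groups overlapped. TBL41 had a log2 difference of -0.51 ± 0.20 (95% interval -0.96 to -0.07), reached an unadjusted p of 0.0281 and did not pass in limma (adjusted p = 0.358). With limma array weights, which give less weight to arrays that depart from the rest, it was called lower (log2 -0.66, limma adjusted p = 0.0439, within a range of 0.0439 to 0.837 over the alternatives); that fit called 3.53% of all probe sets lower.

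TBL18 (AT4G25360) had pop2-1 signals of 345.8, 399.1 and 393.6 and wild-type signals of 492.4, 433.3 and 440.3. The mutant signals lay below those of the wild type without overlap, yet the log2 difference of -0.25 ± 0.13 (95% interval -0.54 to 0.03) did not pass (limma adjusted p = 0.466). TBL16 (AT5G20680) had pop2-1 signals of 250.1, 178.5 and 215.5 and wild-type signals of 238.4, 241.6 and 221.2. Its wild-type arrays lay within the range of the mutant ones (log2 -0.13 ± 0.16, limma adjusted p = 0.782). TBL36 (AT3G54260) had pop2-1 signals of 665.5, 888.1 and 637.3 and wild-type signals of 835.8, 806.6 and 723.9. Mutant replicate 2 was the highest of the 6 arrays and the other two mutant arrays the lowest (log2 -0.12 ± 0.15, limma adjusted p = 0.764).

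TBL39, TBL45 and TBL37 had differences close to 0. TBL39 (AT2G42570) had pop2-1 signals of 935.4, 1507 and 1244 and wild-type signals of 1226, 1085 and 1198, so the mutant arrays held both the lowest and the highest value. Its log2 difference was 0.05 ± 0.17 (95% interval -0.33 to 0.42) and turned to -0.11 without pop2-1 replicate 2. TBL45 (AT2G30010) had pop2-1 signals of 980.1, 1082 and 1139 and wild-type signals of 1057, 1064 and 981.9. The wild-type signals of TBL45 lay inside the range of the mutant ones, with a log2 difference of 0.04 ± 0.11 (95% interval -0.21 to 0.29). TBL37 (AT2G34070) had pop2-1 signals of 310.3, 391.8 and 322.3 and wild-type signals of 330.8, 399.0 and 286.4. In both groups replicate 2 was the highest array of TBL37, and the log2 difference was 0.02 ± 0.16 (95% interval -0.35 to 0.38). The signs of these 3 small differences also changed with the scaling: under scaling to equal array medians they were -0.016 for TBL39, -0.019 for TBL45 and -0.046 for TBL37, and quantile normalization gave -0.037 for TBL37.

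**Figure D3:**
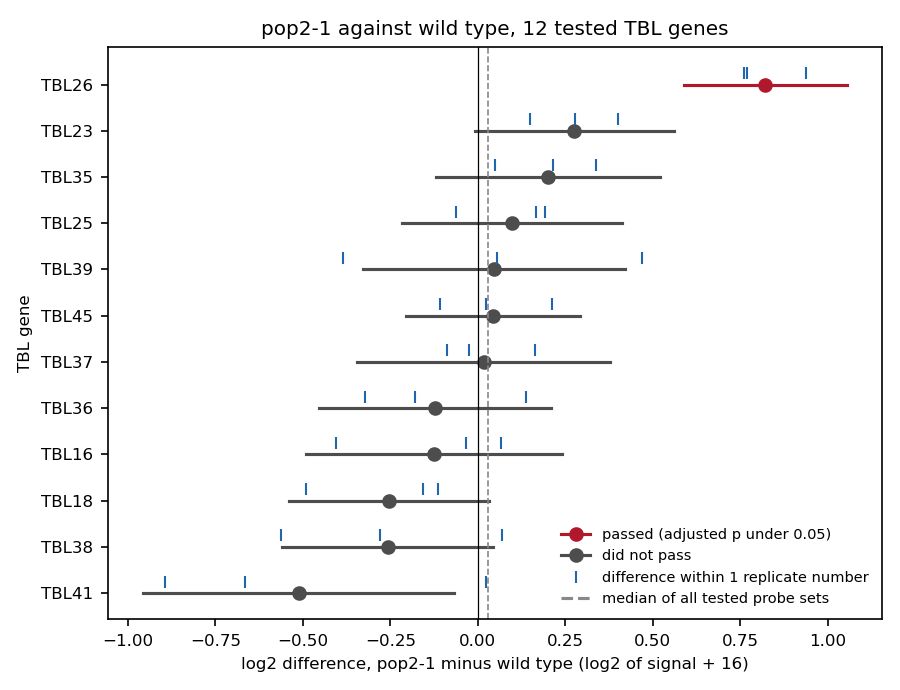
Log2 difference between pop2-1 and wild type (log2 of signal + 16) for the 12 tested TBL genes, with limma's 95% interval as a line, the differences between arrays of the same replicate number as blue ticks and the median of all tested probe sets as a dashed line. TBL26, at 0.82 with an interval of 0.59 to 1.05, is the 1 gene that passed; the other 11 lie between -0.51 and 0.28.

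Over the family, 1 of 12 tested members rose, 0 fell and 11 did not pass. The background over all probe sets tested was 0.462% called in either direction. With limma at an unadjusted p under 0.05 there were 2 members, TBL26 and TBL41, against 11.9% of all probe sets. The log2 difference was above 0 in 7 members and below 0 in 5, where 55.4% of all probe sets were above 0. The median log2 difference of the 12 members was 0.03, as was that of all probe sets tested. In 3 members, TBL23, TBL26 and TBL18, all signals of a group lay on 1 side of the other group, as they did in 17.9% of all probe sets. The counts of members with no overlap or with an unadjusted p under 0.05 were thus near the background.

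The spread between arrays of 1 group differed among members. In wild type the coefficient of variation of the signal ran from 2.56% in TBL23 to 19.0% in TBL41. In pop2-1 it ran from 5.52% in TBL26 to 23.3% in TBL39. It was larger in pop2-1 for 8 of the 12 members, where 74.1% of all probe sets had the larger value there. Of the 12 members 5 had their highest signal on pop2-1 replicate 2, namely TBL23, TBL25, TBL35, TBL36 and TBL39, which is 41.7% beside 34.1% of all probe sets tested. TBL16 was the 1 tested member lowest on that array, where 24.6% of all probe sets tested had their lowest signal.

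**Figure D4:**
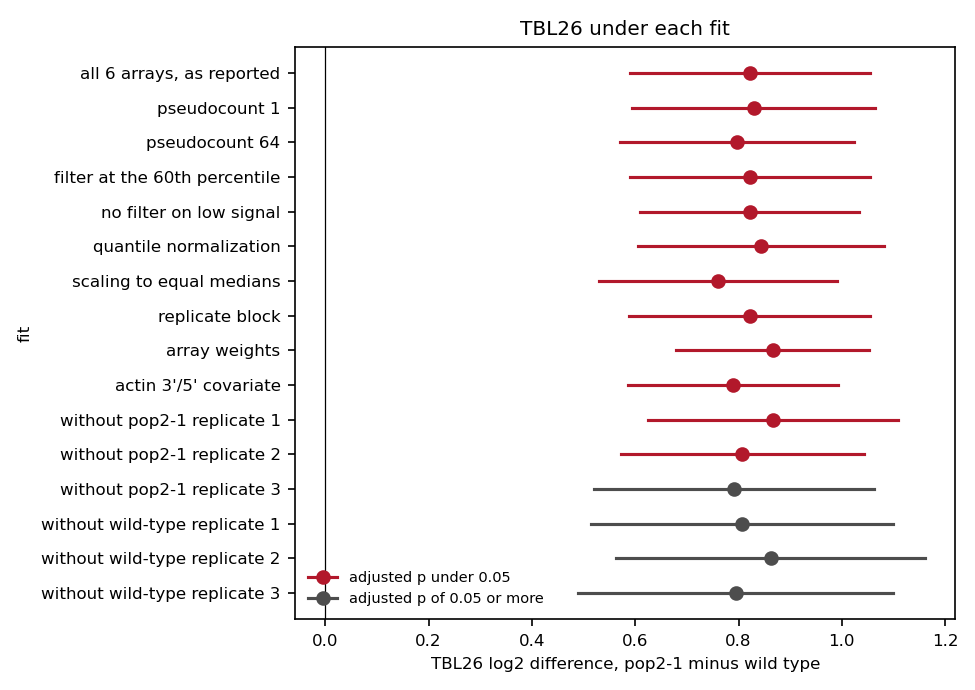
Log2 difference of TBL26 between pop2-1 and wild type under the reported fit and each alternative, with limma's 95% interval; red marks an adjusted p under 0.05. The estimates lie between 0.76 and 0.87, and the 4 fits in grey, without pop2-1 replicate 3 or without 1 of the 3 wild-type arrays, have adjusted p of 0.0793 to 0.126.

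Of the 10 dim members, single signals ran from 1.49 to 125. TBL21 had signals between 1.5 and 7.0 on the 6 arrays. TBL20 had pop2-1 signals of 27.5, 89.7 and 125 and wild-type signals of 47.2, 79.1 and 56.8, and TBL43 had 91.1, 36.5 and 53.4 against 54.1, 69.4 and 82.9. The mutant arrays of both genes held the lowest and the highest signal. TBL15 had pop2-1 signals of 15.4, 3.6 and 38.8 and wild-type signals of 38.9, 31.4 and 46.2, with mutant replicate 3 inside the wild-type range. TBL42 had a signal of 5.4 on pop2-1 replicate 1 and of 62.8 to 76.8 on the other 5 arrays. TBL19 was the 1 dim member whose groups did not overlap, with 2.2 to 6.2 on the mutant arrays and 7.8 to 33.8 on the wild-type arrays, levels at which it is not known whether the transcript was detected. In a fit with no filter on low signal 0 of the 10 passed in limma, with 1, TBL19, at an unadjusted p under 0.05 and a lowest adjusted p of 0.466. Of the 22746 probe sets in that fit 0.185% passed, 10.0% had an unadjusted p under 0.05 and 15.8% had groups that did not overlap, so the dim members' counts were near the background.

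**Figure D5:**
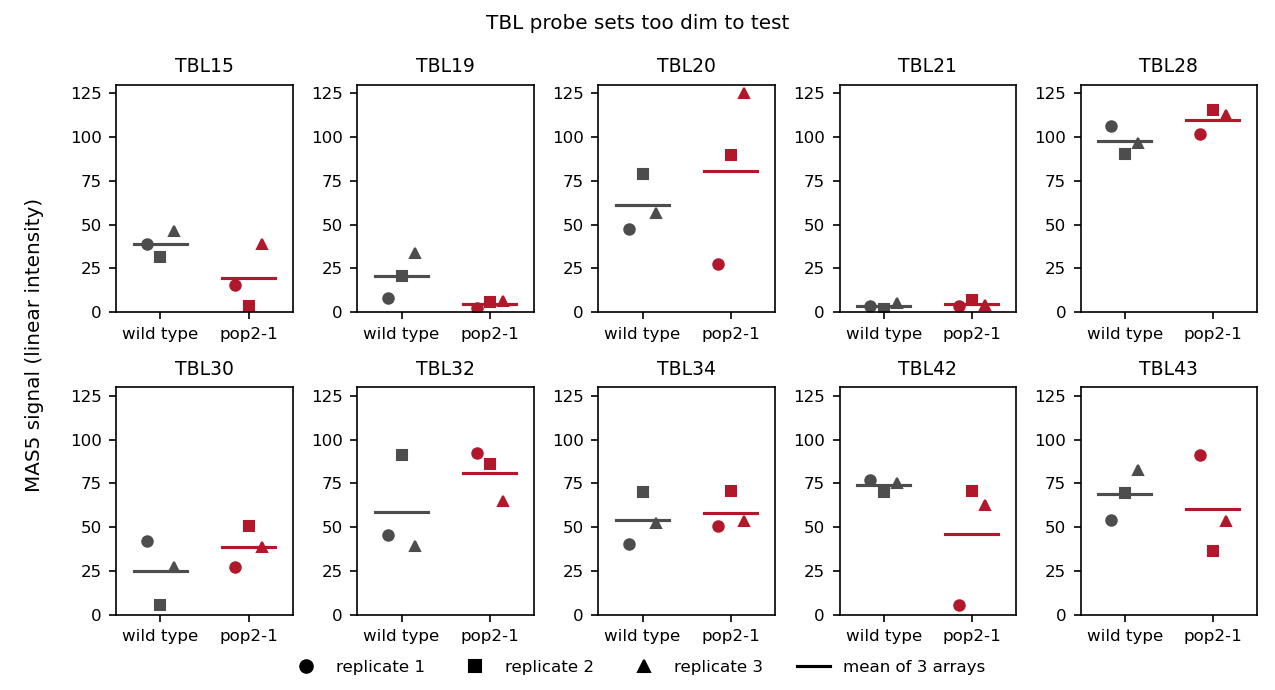
MAS5 signal (linear intensity, the same axis from 0 to 130 in each panel) of the 10 TBL probe sets too dim to test, on the 3 wild-type arrays (grey) and the 3 pop2-1 arrays (red); symbols give the replicate number and bars the mean of 3 arrays. The groups overlap in all panels except TBL19, whose signals were 2.2 to 6.2 on the mutant arrays and 7.8 to 33.8 on the wild-type arrays.

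By the reference annotation, 2 pairs of members are direct neighbours among protein-coding genes, TBL28 with TBL30 and TBL21 with TBL19. All 4 genes were too dim to test, so whether neighbouring members changed together could not be compared. TBL26 is not next to another member.

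The listed genes that build wall polymers were hardly covered. On the lists for xylan, glucomannan and xyloglucan synthesis 9 of 34 genes had a named probe set, and all 9 were bright enough to test. Of these 9, 5 belong to xyloglucan, which is not named here as the polymer of any member. In limma 0 of the 9 passed, with 1 at an unadjusted p under 0.05 (11.9% of all probe sets), and 8 had a log2 difference above 0 (55.4% of all probe sets), with a median of 0.17 beside 0.03 for all probe sets. For glucomannan, the polymer of TBL26, 2 of 11 genes were tested. CSLA01, of the cellulose synthase-like family whose members make mannan backbones, had pop2-1 signals of 340.0, 450.8 and 640.1 and wild-type signals of 367.9, 293.9 and 315.3. Its mutant arrays were widely spread and overlapped the wild type (log2 0.49 ± 0.21, limma adjusted p = 0.41). With array weights CSLA01 was called higher (log2 0.81, limma adjusted p = 0.0168, within 0.0168 to 0.829 over the alternatives), in a fit that called 3.40% of all probe sets higher. CSLA03, of the same family, had a log2 difference of 0.08 ± 0.20.

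For xyloglucan, 5 of 11 genes were tested, each of the CSLC group that holds the glucan synthases of this polymer. CSLC12 had the largest log2 difference, 0.50 ± 0.23 (limma adjusted p = 0.435), with 278.7, 511.3 and 410.7 in pop2-1 and 208.7, 326.3 and 286.9 in wild type. In both groups of CSLC12 replicate 1 was the lowest array and replicate 2 the highest. ATCSLC08 had a log2 difference of 0.18 ± 0.13, CSLC04 of 0.17 ± 0.20, CSLC6 of 0.08 ± 0.12 and CSLC5 of 0.07 ± 0.13. For xylan, 2 of 12 genes were tested, GUT2 with a log2 difference of 0.25 ± 0.18 and GUT1 with -0.07 ± 0.13, both glycosyltransferases of the xylan backbone. The 36 listed genes of other wall acetylation proteins, pectin acetylesterases, endo-mannanases and homogalacturonan synthesis were not analysed here.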

How the data were processed

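The deposited values were MAS5 signal intensities on a linear scale, with MAS5 named in the submitters' processing notes as the tool; its version and scaling target are not given in the sources used here. The 2% trimmed mean was 500 on each array, so a change in total RNA is hidden. Detection calls were not used. Groups and replicate numbers came from the sample titles, because some other wild-type fields carry the text of the mutant.

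Gene names came from the platform annotation, updated through the Entrez number to the TAIR10.1 gene table; the symbols of all 22 members matched. A pseudocount of 16 was added and log2 taken, so fold changes of dim genes are understated. Probe sets above the 40th percentile of the mean log2 value were tested with limma 3.58.1 in R 4.3.3 (intensity trend, 2-sided) over all 6 arrays. The fit was also run on simulated signals, with spreads shuffled among probe sets and arrays drawn independently. That setting differs from these data, and its outcome is not used as support here. The members and lists were chosen with earlier results of these data known. All members are named, and of other lists each gene that passed or up to 4 with the smallest p; CSLA and CSLC genes carry the file's symbols, and CSLC5 was added after its values were seen. Of the listed loci 2 without a symbol in the table were left out. The relative of TBL26 was to be chosen by protein identity; no protein sequences were used here, and TBL25 was taken from background knowledge, with TBL23 added.

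After subtracting group means, arrays with the same number correlated at 0.213, 0.421 and 0.178. Correlations between arrays with unlike numbers were not computed. The numbers come from the titles, and whether they pair the arrays is not known. The reported fit did not use the replicate numbers. A fit with them as a block was run as an alternative. The limma p-values set a group difference against the spread between these arrays, with variance information shared across probe sets. The number of arrays limits the precision.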

Additional observations from a re-analysis of the deposited data

How the results depend on the processing

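Fits were repeated with 15 other settings, and TBL26 was set against TBL23 after seeing the data. TBL26 stayed higher in pop2-1 in each, at 0.76 to 0.87 on the log2 scale, though groups that do not overlap keep their order whichever array is dropped. With the replicate block its adjusted p was 0.00844 (0.0127 without), 1 member rose and 0 fell, and the block changed no other call among the members and listed genes, while over all probe sets the calls went from 63 to 257. The count of members that rose was 0 to 1 when 1 array was left out, and the count that fell was 0 in those fits. Array weights gave 1 member lower, TBL41, and 1 wall polymer gene passing, CSLA01, in a fit that called 946 of 13647 probe sets; the cause was not tested. The within-array difference of TBL26 and TBL25 stood at 0.62 to 0.82, and at 0.72 with the replicate block, where the smallest exact p is 0.25. The median of the family ran from -0.062 with the actin covariate, where that of all probe sets was 0.0087, to 0.090 without pop2-1 replicate 1, where it was 0.048.

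Of 379 comparisons of 1 gene under 1 alternative, 353 kept their sign and side of the threshold. Those that changed sign were small and uncalled. Scaling to equal medians gave -0.046 for TBL37, -0.016 for TBL39 and -0.019 for TBL45, and quantile normalization gave -0.037 for TBL37. Array weights gave -0.013 for TBL37. The actin covariate gave -0.11 for TBL37 and -0.10 for TBL39. Over the fits that leave out 1 array, TBL37 ran from -0.093 to 0.14, TBL39 from -0.11 to 0.23, TBL45 from -0.0054 to 0.10, TBL25 from -0.013 to 0.18, CSLA03 from -0.055 to 0.19, CSLC04 from -0.075 to 0.35 and CSLC5 from -0.034 to 0.14. The lack of detection calls and the number of arrays limit what dim members can show.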
